A study of Mus musculus with 8 samples.

Results

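Globin and red cell gene RNA was followed in cells that had been sorted without the red cell surface antigen Ter119. The 9 genes were chosen by name out of the 24015 genes of the count table, with earlier results of these data known. They are the embryonic globins Hba-x, Hbb-y and Hbb-bh1, the adult globins Hba-a1 and Hbb-b1, and the red cell genes Klf1, Alas2, Slc4a1 and Hemgn. Embryonic globin RNA was found in every library, with Hbb-y as the most abundant of the 3 embryonic globins in 7 of 8 and Hbb-bh1 in the remaining one, wild type clusters replicate 1. Klf1 RNA was also found in all 8 libraries, Alas2 RNA in 6 and Hemgn RNA in 7 of them, and Hba-a1, Hbb-b1 and Slc4a1 were listed at 0 throughout. No member passed the threshold between cell types or genotypes in edgeR's quasi-likelihood test with its filter on low counts. Without that filter and in DESeq2, Hbb-bh1 passed between the wild type cell types and Hbb-y between genotypes in clusters, in each case with most of the counts in 1 library.

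The study compared wild type (WT) mouse embryos with Sl/Sl embryos, which carry a deletion that takes in the gene for Kit ligand (Kitl), at E11.5, midgestation. From the aorta-gonad-mesonephros region with the vitelline and umbilical arteries, Ter119- VE-Cadherin+ cells were sorted either as hematopoietic clusters, which were Kit+, or as endothelium, which lacked Kit, CD41 and CD45. Each of the 4 groups, WT clusters, Sl/Sl clusters, WT endothelium and Sl/Sl endothelium, has 2 libraries of 100 cells, taken from pools of 1 to 4 embryos of one genotype. Every group shares the C57BL/6 background, the stage and the exclusion of Ter119+ cells, and the deletion is in all cells of an Sl/Sl embryo, not in one cell type.

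Hemoglobin is a tetramer of alpha-type and beta-type globin chains that carry heme. In the mouse embryo, primitive red cells from the yolk sac first use the embryonic chains encoded by Hba-x (zeta), Hbb-bh1 (beta-h1) and Hbb-y (epsilon-y), while definitive red cells use the adult chains of Hba-a1, Hba-a2 and the Hbb-b genes. Primitive red cells circulate at midgestation through the vessels from which both sorted cell types were taken.

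The coding sequences below are shown because the adult genes are near copies of each other while the embryonic genes are not, which bears on what each count can mean. They are the first 75 coding bases, all in the first exon, as annotated by GENCODE on the NCBIM37 genome, the build also called mm9. Capitals mark the positions at which the genes printed together differ. The alpha-type genes lie on the plus strand of chromosome 11, at chr11:32176664-32176738 for Hba-x, chr11:32183707-32183781 for Hba-a1 and chr11:32196524-32196598 for Hba-a2, and 38 of the 75 positions differ among them.
Hba-x: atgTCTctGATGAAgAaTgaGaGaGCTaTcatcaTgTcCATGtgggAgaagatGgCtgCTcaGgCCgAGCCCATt
Hba-a1: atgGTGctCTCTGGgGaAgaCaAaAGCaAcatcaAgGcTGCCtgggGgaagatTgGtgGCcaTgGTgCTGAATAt
Hba-a2: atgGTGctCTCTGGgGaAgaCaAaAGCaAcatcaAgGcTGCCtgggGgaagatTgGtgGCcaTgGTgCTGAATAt
The beta-type genes lie on the minus strand of chromosome 7, at chr7:111001592-111001666 for Hbb-y, chr7:110991550-110991624 for Hbb-bh1, chr7:110976315-110976389 for Hbb-b1 and chr7:110962309-110962383 for Hbb-b2, and 35 of the 75 positions differ among them.
Hbb-y: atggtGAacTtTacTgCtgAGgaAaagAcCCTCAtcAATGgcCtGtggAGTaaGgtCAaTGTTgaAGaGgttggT
Hbb-bh1: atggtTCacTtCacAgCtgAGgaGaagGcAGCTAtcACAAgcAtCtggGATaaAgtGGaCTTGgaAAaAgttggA
Hbb-b1: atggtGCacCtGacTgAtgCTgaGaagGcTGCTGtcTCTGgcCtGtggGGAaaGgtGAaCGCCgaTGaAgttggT
Hbb-b2: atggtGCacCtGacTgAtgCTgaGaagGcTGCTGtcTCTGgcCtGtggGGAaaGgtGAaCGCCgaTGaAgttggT
Within these 75 bases the printed adult sequences of a pair do not differ, and over the whole coding sequence Hba-a1 and Hba-a2 differ at 1 of 429 positions and Hbb-b1 and Hbb-b2 at 1 of 444. Of the windows of 75 bases, the read length, in the coding sequence of Hba-a1, 86.2% also occur in the transcript of Hba-a2, and 92.4% of those of Hbb-b1 occur in that of Hbb-b2. Hbb-y and Hbb-bh1 differ at 105 of 444 positions and share none of their 370 windows, so a read of either can be told from the other by its sequence.

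The adult globins Hba-a1 and Hbb-b1 had a count of 0 in all 8 libraries, as did their copies Hba-a2 and Hbb-b2. These zeros cannot be read as an absence of adult globin RNA. The table places exons of Hba-a1 and of Hba-a2 at both loci, so that 99.5% of the exon bases of Hba-a1 also belong to Hba-a2, and 99.8% of those of Hbb-b1 also belong to Hbb-bs, listed at the same place. Of the 546 genes whose exons were covered to 95% or more by another gene of the table, 528 (96.7%) were at 0 in all libraries, compared with 5983 of 20866 genes (28.7%) without any overlap. Among 51 genes covered to 95% or more, but to less than 5% on their own strand, all 51 were at 0. How the authors' counting treated reads that fall in more than 1 gene or match more than 1 place is not given in the sources used here. A share of embryonic among all globin RNA, planned for the beta-type and the alpha-type genes, came to 100% in every library for this reason and carries no information. The other 7 members had no overlap with another gene, apart from 1.47% of the exon bases of Alas2.

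**Figure D1:**
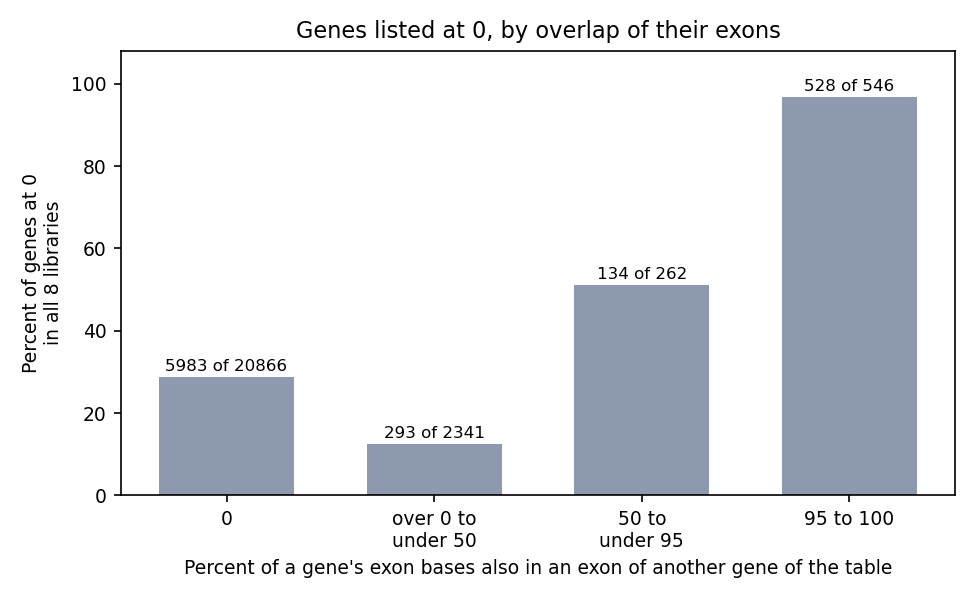
Genes of the count table grouped by the percent of their exon bases that also lie in an exon of another gene (horizontal axis), with the percent of each group that had a count of 0 in all 8 libraries (vertical axis). In the group covered to 95% or more, which holds Hba-a1 and Hbb-b1, 528 of 546 genes were at 0, against 5983 of 20866 genes without overlap.

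The libraries held between 8933236 and 13428214 counts on genes, and 12844 to 14309 genes were detected in each. Spearman correlations between replicates, across genes, were 0.917 to 0.923. Kitl, the deleted gene, had 923 and 1250 counts in the WT endothelium libraries and 2 to 6 in those of Sl/Sl, while among the clusters it had 110 in WT replicate 1, 0 in WT replicate 2 and 1 or 3 in the mutant ones, so it did not separate WT replicate 2 from the mutant clusters. Ptprc, which encodes the leukocyte antigen CD45, had 1294 to 3908 counts in the clusters and 6 to 16 in the endothelium. Cdh5, which encodes VE-Cadherin, had 154 to 2531 in the clusters and 4480 to 8240 in the endothelium, so RNA of the marker that both cell types were sorted for was present in all libraries. Kit had 2937 to 4392 counts in the clusters, which were sorted for it, and 538 to 1065 in the endothelium, which was sorted as lacking it. Itga2b, which encodes CD41, had 109 to 271 counts in the clusters and 44 to 109 in the endothelium.

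Hbb-y, the embryonic beta-type gene at chr7:111000268-111001721 on the minus strand, had 51 and 228 counts in WT clusters and 2701 and 155 in Sl/Sl clusters. In the endothelium it had 300 and 316 counts in WT and 302 and 629 in Sl/Sl. Sl/Sl clusters replicate 1 stood far above the other 7 libraries, and the genotypes overlapped in both cell types. Among the endothelial libraries the counts lay close together except for the 629 of Sl/Sl replicate 2. As RPKM, counts scaled for exon length and library total, Hbb-y ran from 7.66 in WT clusters replicate 1 to 364 in Sl/Sl clusters replicate 1. In the latter library, 97.5% of the detected genes had a lower RPKM, and in the endothelial libraries 80.1% to 91.0% had. As CPM, counts scaled for library total alone, the group means were 11.1 ± 9.43 (SD, n = 2) in WT clusters, 116 ± 149 in Sl/Sl clusters, 27.9 ± 5.70 in WT endothelium and 50.7 ± 34.3 in Sl/Sl endothelium. The level was higher in both WT endothelium libraries than in both WT cluster libraries, by a log2 fold change of 1.33 (SE 1.15, adjusted p = 0.568 in edgeR, adjusted by the Benjamini-Hochberg method). In Sl/Sl embryos the cell types overlapped, with a log2 fold change of -1.20 (SE 1.13). Between genotypes, the log2 fold change of Sl/Sl against WT was 3.39 (SE 1.23, edgeR adjusted p = 1) in clusters and 0.86 (SE 1.13) in endothelium. Without Sl/Sl clusters replicate 1 the value in clusters was -0.03, and without WT clusters replicate 1 the difference between the WT cell types was 0.65. Sl/Sl clusters replicate 1 also had the highest summed RPKM of 12 endothelial markers among the cluster libraries, at 1440, compared with 377 in its replicate, 524 and 221 in WT clusters and 2815 to 3270 in the endothelium, and all 12 were detected in every library. The part of endothelial RNA in its Hbb-y counts was not tested.

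Hbb-bh1, the other embryonic beta-type gene, at chr7:110990152-110991676 on the same strand, had 695 and 35 counts in WT clusters and 189 and 31 in Sl/Sl clusters. Endothelial libraries had 29 and 15 counts in WT and 29 and 30 in Sl/Sl. Replicate 1 of each cluster group was high, and the other 6 libraries lay between 15 and 35 counts. The mean level was 31.3 ± 40.4 CPM (SD, n = 2) in WT clusters, 8.84 ± 9.43 in Sl/Sl clusters, 1.91 ± 0.56 in WT endothelium and 3.05 ± 0.73 in Sl/Sl endothelium. Both WT endothelium libraries were below both WT cluster libraries, with a log2 fold change of -4.03 (SE 1.61, edgeR adjusted p = 0.208). Without WT clusters replicate 1 this difference was -0.51. In Sl/Sl embryos the cell types overlapped and the log2 fold change was -1.53 (SE 1.46), or 0.49 without Sl/Sl clusters replicate 1. Between genotypes it was -1.82 (SE 1.46) in clusters, where the libraries overlapped, and 0.67 (SE 1.45, edgeR adjusted p = 1) in endothelium, where both Sl/Sl libraries were above both WT libraries as CPM. In the 2 cluster libraries in which Hbb-bh1 was high, the summed RPKM of 14 macrophage markers was 851 in WT and 803 in Sl/Sl, compared with 319 and 452 in their replicates and 5.58 to 29.9 in the endothelium. Lyz2, which encodes a lysozyme of macrophages and neutrophils, made up 696 and 544 of the former and 126 and 296 of the latter. Without Lyz2 the sums were 155 and 193 in WT clusters and 259 and 156 in Sl/Sl clusters, so that in WT the library with the high Hbb-bh1 count was the lower one. Of these 14 markers, 11 to 13 were detected in each cluster library and 5 to 10 in each endothelial library. C1qa, a marker of tissue macrophages, had 1 and 23 counts in WT clusters and 300 and 0 in Sl/Sl clusters. Other markers differed from it. C1qb had 55 to 155 counts in WT clusters and 184 to 707 in Sl/Sl clusters, and C1qc had 7 to 106 and 49 to 474. Csf1r had 448 and 300 counts in WT clusters and 263 and 529 in Sl/Sl clusters, the opposite order to C1qa. The part of macrophages in the Hbb-bh1 counts was not tested.

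Hba-x, the embryonic alpha-type gene at chr11:32176600-32178115, had 10 and 3 counts in WT clusters and 81 and 135 in Sl/Sl clusters. In the endothelium it had 2 and 34 counts in WT and 3 and 77 in Sl/Sl. Both Sl/Sl cluster libraries were above both WT cluster libraries, whereas in the endothelium replicate 1 was low and replicate 2 high in both genotypes. The level was 0.55 ± 0.44 CPM (SD, n = 2) in WT clusters, 8.04 ± 1.97 in Sl/Sl clusters, 1.80 ± 2.31 in WT endothelium and 4.72 ± 6.30 in Sl/Sl endothelium. Sl/Sl against WT in clusters gave a log2 fold change of 3.85 (SE 2.31, edgeR adjusted p = 1). In the endothelium it was 1.39 (SE 2.10), and -2.74 without Sl/Sl endothelium replicate 2. Between WT endothelium and WT clusters it was 1.69 (SE 2.13), and -1.72 without WT endothelium replicate 2.

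**Figure D2:**
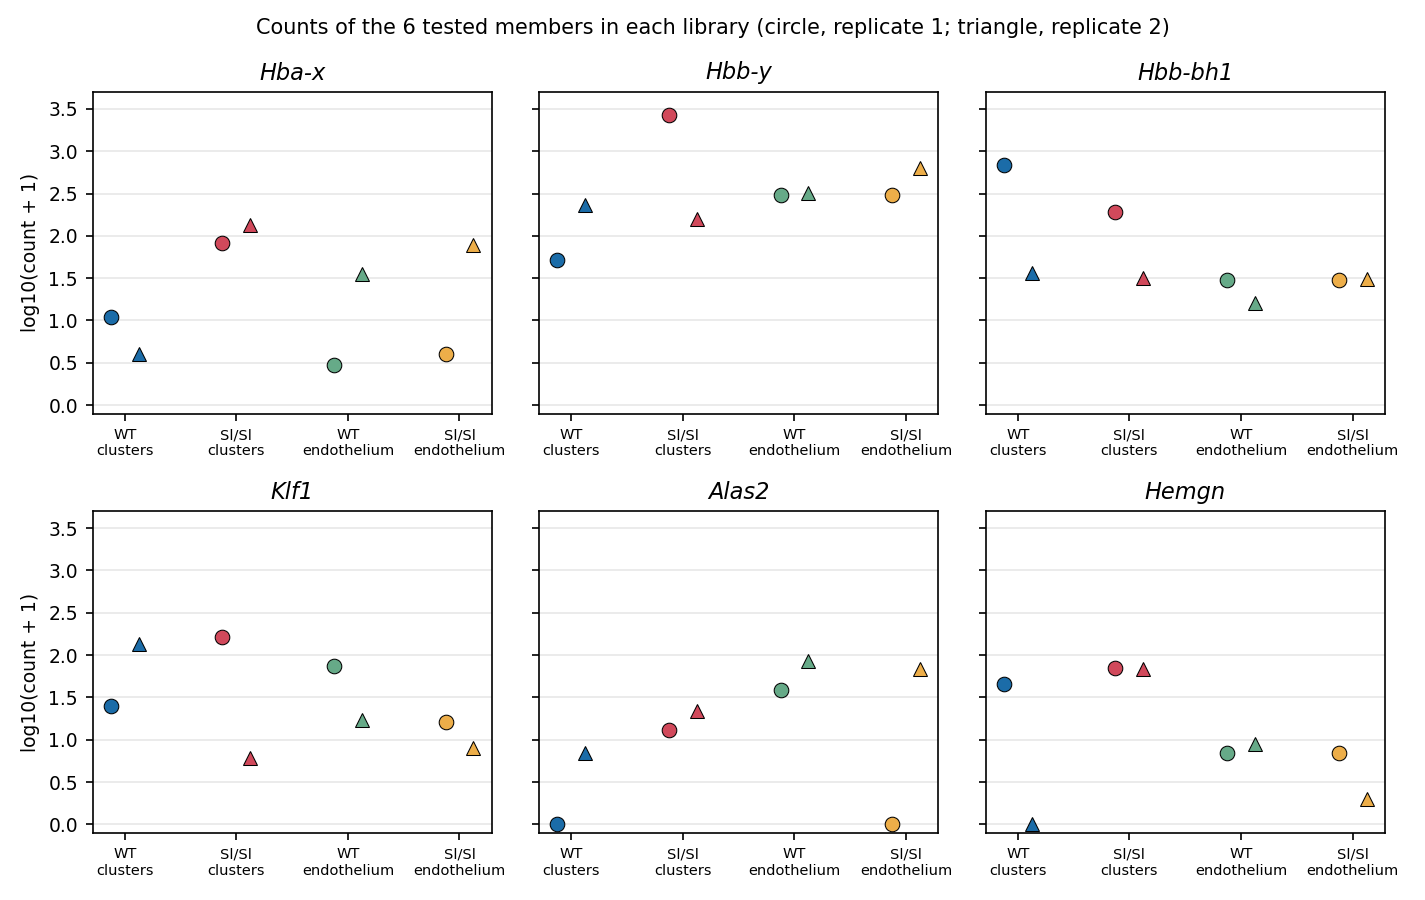
Counts of the 6 members with any counts, as log10(count + 1) on the vertical axis, in each library of the 4 groups on the horizontal axis, with circles for replicate 1 and triangles for replicate 2. Hbb-y stands at 2701 counts in Sl/Sl clusters replicate 1 and Hbb-bh1 at 695 in WT clusters replicate 1, while the 4 endothelial libraries of Hbb-y lie between 300 and 629.

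The makeup of the embryonic globin RNA differed between libraries as much as its amount. The share of Hbb-bh1 in the counts of Hbb-bh1 and Hbb-y together, a measure chosen after the values were seen, was 93.2% (95% Wilson interval 91.1 to 94.8) in WT clusters replicate 1 and 13.3% (9.73 to 17.9) in replicate 2. In Sl/Sl clusters it was 6.54% (5.69 to 7.50) and 16.7% (12.0 to 22.7). Among endothelial libraries it was 8.81% (6.21 to 12.4) and 4.53% (2.77 to 7.34) in WT, and 8.76% (6.17 to 12.3) and 4.55% (3.21 to 6.42) in Sl/Sl. WT clusters replicate 1 was thus the only library in which Hbb-bh1 exceeded Hbb-y, and the endothelial libraries that share a replicate number had nearly the same share. The intervals cover counting error only, since the libraries carry no molecular identifiers and copies made by PCR are counted as reads. Per kilobase of exon, Hba-x made up 42.8% of the 3 embryonic globins in Sl/Sl clusters replicate 2, and 0.622% to 10.8% in the other 7 libraries. In the endothelium Hba-x made up 0.622% and 0.925% in the libraries of replicate 1 and 9.58% and 10.8% in those of replicate 2. Red cells pair alpha-type with beta-type chains in equal number, but the level of Hba-x per kilobase was 0.00626 to 0.747 times that of the 2 embryonic beta-type genes together, with alpha chains of the adult genes outside this count.

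**Figure D3:**
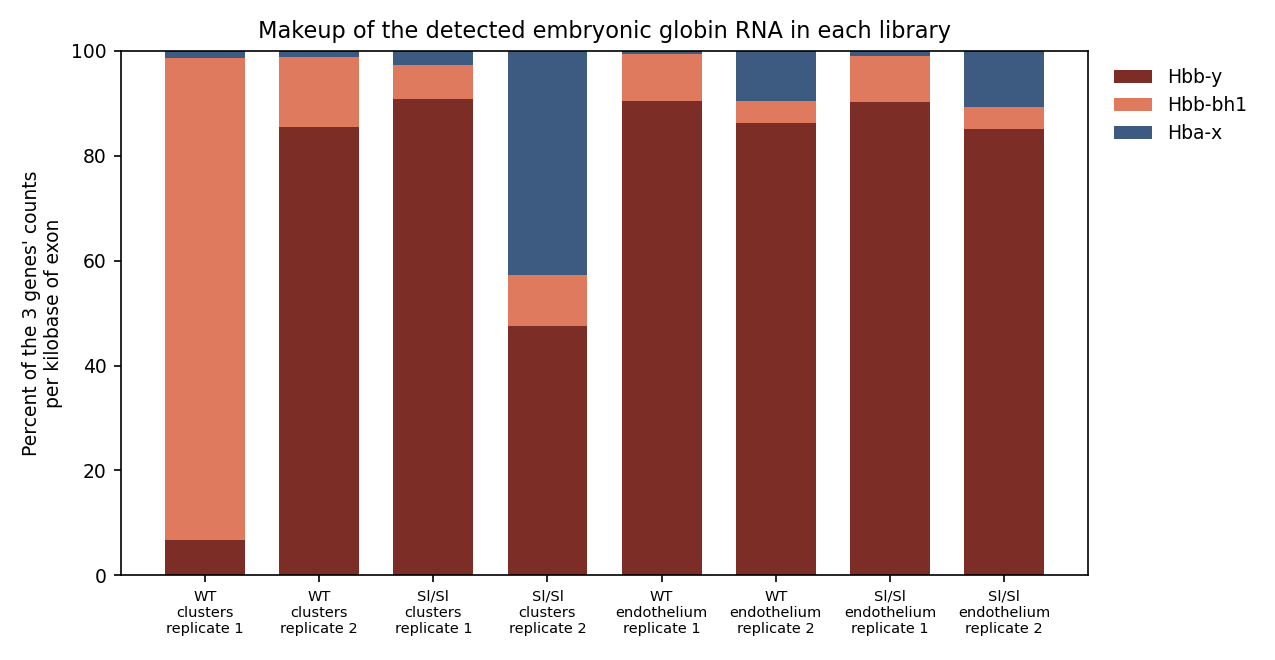
Share of Hbb-y, Hbb-bh1 and Hba-x in the counts per kilobase of exon of the 3 genes (vertical axis, percent) in each of the 8 libraries (horizontal axis). Hbb-y fills most of the bar except in WT clusters replicate 1, where Hbb-bh1 makes up 92.0%, and in Sl/Sl clusters replicate 2, where Hba-x makes up 42.8%.

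The globin genes with counts, among which the adult globins are not, together took 0.00212% to 0.0248% of all counts. Their summed level was 115 and 34.3 RPKM in WT clusters, 401 and 39.4 in Sl/Sl clusters, 41.7 and 56.4 in WT endothelium, and 45.4 and 134 in Sl/Sl endothelium. Sl/Sl clusters replicate 1 was highest and WT clusters replicate 2 lowest, and both WT endothelium libraries lay between the 2 of WT clusters. In RNA pooled from 100 cells, a few cells rich in a transcript and a low level in many cells cannot be told apart.

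Klf1, at chr8:87425827-87429194 on the plus strand, encodes the transcription factor that switches on beta-type globin and many other red cell genes. It had 24 and 134 counts in WT clusters and 163 and 5 in Sl/Sl clusters. Its endothelial counts were 74 and 16 in WT and 15 and 7 in Sl/Sl. The Sl/Sl clusters held both the highest and the lowest of the 8 counts, and only in the endothelium were the genotypes apart, with both WT libraries above both Sl/Sl libraries. The log2 fold change of Sl/Sl against WT was -1.79 (SE 1.94, edgeR adjusted p = 1) in endothelium, or -0.58 without WT endothelium replicate 1. It was 0.13 (SE 1.87) in clusters, where it was -4.12 without Sl/Sl clusters replicate 1 and 1.72 without WT clusters replicate 2. Endothelium against clusters differed by -0.73 (SE 1.89) in WT and -2.66 (SE 2.00) in Sl/Sl embryos on the log2 scale, and the latter became 1.59 without Sl/Sl clusters replicate 1. Gata1 encodes a partner factor needed by red cells and megakaryocytes. Its replicates ran in the order of Klf1 in WT clusters and in the opposite order in Sl/Sl clusters. As for Klf1, both WT endothelium libraries were above both Sl/Sl endothelium libraries. Gata1 had 17 and 153 counts in WT clusters, 62 and 236 in Sl/Sl clusters, 16 and 15 in WT endothelium, and 5 and 3 in Sl/Sl endothelium. Replicate 2 was the higher one in both cluster groups, as was the summed RPKM of 13 megakaryocyte and platelet markers, with 127 and 1371 in WT clusters and 327 and 2182 in Sl/Sl clusters. Pf4 and Ppbp made up most of the higher sums, at up to 753 and 487 RPKM in WT and 1250 and 730 in Sl/Sl clusters. Not every marker had this order. Gp9 had 14.9 and 7.07 RPKM in WT clusters and 35.8 in both Sl/Sl cluster libraries. Itga2b had 6.90 and 3.89 in WT clusters and 2.65 and 5.87 in Sl/Sl clusters. The part of megakaryocytes and platelets in the Gata1 counts was not tested.

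Alas2, at chrX:146981960-147005165 on the plus strand, encodes the red cell form of the enzyme that starts heme synthesis. It had 0 and 6 counts in WT clusters and 12 and 21 in Sl/Sl clusters. Its counts in endothelium were 38 and 84 in WT and 0 and 68 in Sl/Sl. Its highest counts were thus in 3 of the 4 endothelial libraries, and it was at 0 in 1 library of each cell type. Both WT endothelium libraries were above both WT cluster libraries, with a log2 fold change of 4.55 (SE 2.92, edgeR adjusted p = 0.425). Both Sl/Sl cluster libraries were above both WT cluster libraries, with a log2 fold change of 2.33 (SE 2.66, edgeR adjusted p = 1), at a mean level of 1.23 ± 0.34 CPM (SD, n = 2) against 0.23 ± 0.33. Without WT clusters replicate 1 the latter difference was 1.37.

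Hemgn, at chr4:46406861-46417055 on the minus strand, encodes hemogen, a nuclear protein of blood precursors and red cells. It had 45 and 0 counts in WT clusters and 69 and 68 in Sl/Sl clusters. In the endothelium it had 6 and 8 counts in WT and 6 and 1 in Sl/Sl. Sl/Sl clusters was the one group with close replicates at a high count, and 3 of the 4 cluster libraries were above every endothelial library. Endothelium against clusters differed by -3.96 (SE 2.73, edgeR adjusted p = 0.538) on the log2 scale in Sl/Sl embryos, where the libraries did not overlap. Sl/Sl against WT in clusters differed by 1.42 (SE 2.46, edgeR adjusted p = 1), with both Sl/Sl libraries above both WT libraries, and by 0.42 without WT clusters replicate 2.

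Slc4a1, at chr11:102210134-102226595 on the minus strand, encodes band 3, the anion exchanger that is the main protein of the mature red cell membrane. It had 0 counts in all 8 libraries, and none of its exon bases is shared with another gene of the table. Taking 3 counts as the most that a count of 0 allows, its level was under 0.0491 to 0.0738 RPKM, depending on the library, a limit that covers counting error only.

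Of the 9 members, 6 were kept by edgeR's filter on low counts, and 13908 genes were tested together. The number of members past the threshold (Benjamini-Hochberg adjusted p under 0.1) was 0 of 6 in each of the 5 comparisons. Over all genes tested, 8.24% were called between WT endothelium and WT clusters, 2.83% between Sl/Sl endothelium and Sl/Sl clusters, and 0% between genotypes in clusters, between genotypes in endothelium and in the interaction, the difference between the 2 genotype effects. Although edgeR made 0 calls between genotypes, 587 genes in clusters and 579 in endothelium had an unadjusted p under 0.05, as had 735 in the interaction, and DESeq2 called 175, 178 and 175. For Hbb-y the interaction, the genotype difference in clusters minus that in endothelium, was 2.53 (SE 1.61, edgeR adjusted p = 0.944) on the log2 scale. Members whose libraries did not overlap numbered 3 of 6 between cell types in WT (Hbb-y and Alas2 higher, Hbb-bh1 lower in endothelium), where 50.6% of all genes tested did not overlap. They numbered 1 of 6 in Sl/Sl (Hemgn lower), where 46.4% of all genes did not. Between genotypes they numbered 3 of 6 in clusters (Hba-x, Alas2 and Hemgn higher in Sl/Sl) and 2 of 6 in endothelium (Hbb-bh1 higher, Klf1 lower), where 32.7% and 28.5% of all genes did not overlap. The comparisons between cell types in WT and between genotypes in clusters share the WT cluster libraries and are not independent.

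Hbb-bh1 and Hbb-y were called under another test or filter. Hbb-bh1 was lower in WT endothelium than in WT clusters in DESeq2 (log2 fold change -4.06, SE 1.38, adjusted p = 0.0256), which called 19.8% of all genes there, and in edgeR without the filter on low counts (adjusted p = 0.0800), which called 11.7%. Hbb-y was higher in Sl/Sl than in WT clusters in DESeq2 (log2 fold change 3.38, SE 1.04, adjusted p = 0.0914), which called 1.36% of all genes, and in edgeR without the filter (adjusted p = 7.69e-06), which called 1.48%. Each of these rests on 1 library, since the fitted differences were -0.51 without WT clusters replicate 1 and -0.03 without Sl/Sl clusters replicate 1.

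**Figure D4:**
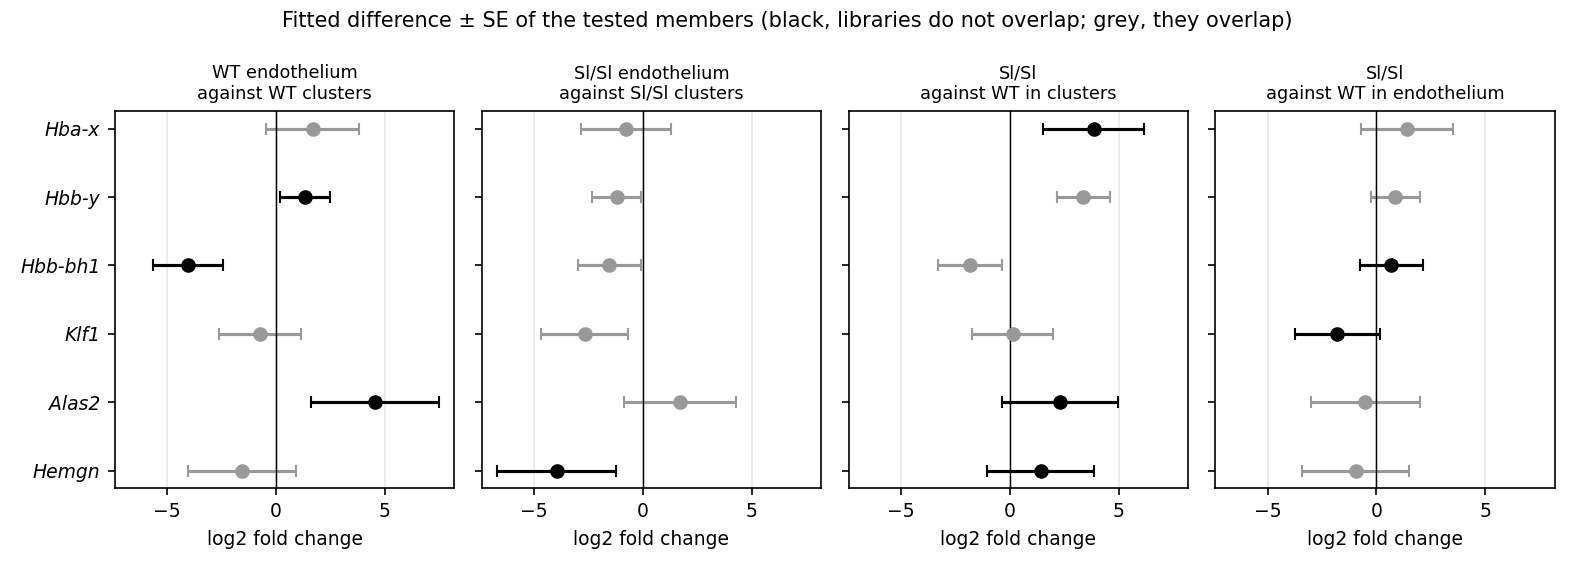
Fitted log2 fold change with its SE (horizontal axis) for the 6 tested members (vertical axis) in 4 comparisons, black where the libraries of the 2 groups did not overlap and grey where they did. The largest values are 4.55 for Alas2 and -4.03 for Hbb-bh1 between WT endothelium and WT clusters, and none of the members passed the threshold.

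By the median, the members varied more between replicates of one group than all genes tested. Of the 24 combinations of 6 tested members and 4 groups, the higher replicate was more than 2 times the lower in CPM in 16. The same share over all genes was not taken. The median difference between replicates over the 6 members was 2.11 on the log2 CPM scale in WT clusters, 1.62 in Sl/Sl clusters, 1.02 in WT endothelium and 1.38 in Sl/Sl endothelium. Over all 13908 genes the medians were 0.66, 0.63, 0.63 and 0.64. These genes were not matched to the members for level, and many member counts were low. Single members differed: 23.1% of all genes had a smaller difference than Hemgn in Sl/Sl clusters, and 97.9% than Alas2 in Sl/Sl endothelium. The members did not rise and fall together across the 8 libraries, which share preparation and amplification and differ in depth. Pearson's r of log2 CPM ran from -0.53 for Hbb-bh1 with Alas2 to 0.54 for Hbb-bh1 with Hemgn over the 15 pairs. The genes whose log2 CPM was most like that of Klf1 over the 8 libraries were Piga (r = 0.97), 2610020H08Rik (0.93), Apeh (0.92), Pcdhb7 (0.91) and Irak4 (0.91). Those most like Hbb-y were Pef1 (0.96), Drg2 (0.95), Rbm7 (0.93), Ctsa (0.93) and Cdipt (0.93). None of these 10 genes is in the lists of red cell genes that follow. They were picked as the highest r among all other genes tested, over 8 libraries. Such a search can give a high r by itself, and the likeness was not tested.

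Other genes of the red cell pathways were followed in lists that leave the members out. The 14 genes of heme synthesis were all tested and 0 passed the threshold in any of the 5 comparisons in edgeR, as none did in DESeq2, while 1 had an unadjusted p under 0.05, between genotypes in clusters. Heme is made by all cells, and Tmem14c, a carrier of heme precursors into mitochondria, and Urod, an enzyme of the pathway, had the highest levels, at 280 to 384 and 82.5 to 162 RPKM. Over the list, the median log2 fold change between WT endothelium and WT clusters was 0.59, against -0.0032 for all genes tested, and it was -0.28 against -0.066 in Sl/Sl embryos. Between genotypes it was 0.38 in clusters and -0.20 in endothelium, against 0.03 and -0.0015.

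Of 18 erythroid transcription factors, all tested, 5 were lower in endothelium than in clusters in WT embryos and 5 in Sl/Sl embryos, and 0 were higher. Of all 13908 genes tested, 512 were lower and 634 higher in WT (8.24% called) and 256 lower and 137 higher in Sl/Sl embryos (2.83% called). On the log2 scale the median fold of these factors was -0.62 in WT and -0.24 in Sl/Sl embryos, against -0.0032 and -0.066 over all genes. The 5 were in both genotypes Nfe2, Gfi1b, Bcl11a, Ikzf1 and Myb, which act in blood progenitors and several blood lineages as well as in red cells. Myb, a factor of immature blood cells, had 1786 to 2306 counts in the clusters and 10 to 61 in the endothelium, with log2 fold changes of -5.14 (SE 0.48, edgeR adjusted p = 0.00134) in WT and -6.24 (SE 0.51, edgeR adjusted p = 0.00108) in Sl/Sl embryos. Nfe2, a factor of megakaryocytes and red cells, had 749 to 1406 counts in the clusters and 4 to 40 in the endothelium. The levels were highest for Lmo2, a partner of Tal1 and Gata1, at 44.4 to 131 RPKM, and Klf13, at 33.6 to 83.3. The call of Bcl11a was lost without any 1 of the 4 libraries compared in WT (adjusted p up to 0.234 in edgeR) and without Sl/Sl clusters replicate 2 in Sl/Sl embryos (0.173), while the other 4 kept theirs without each library in turn.

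**Figure D5:**
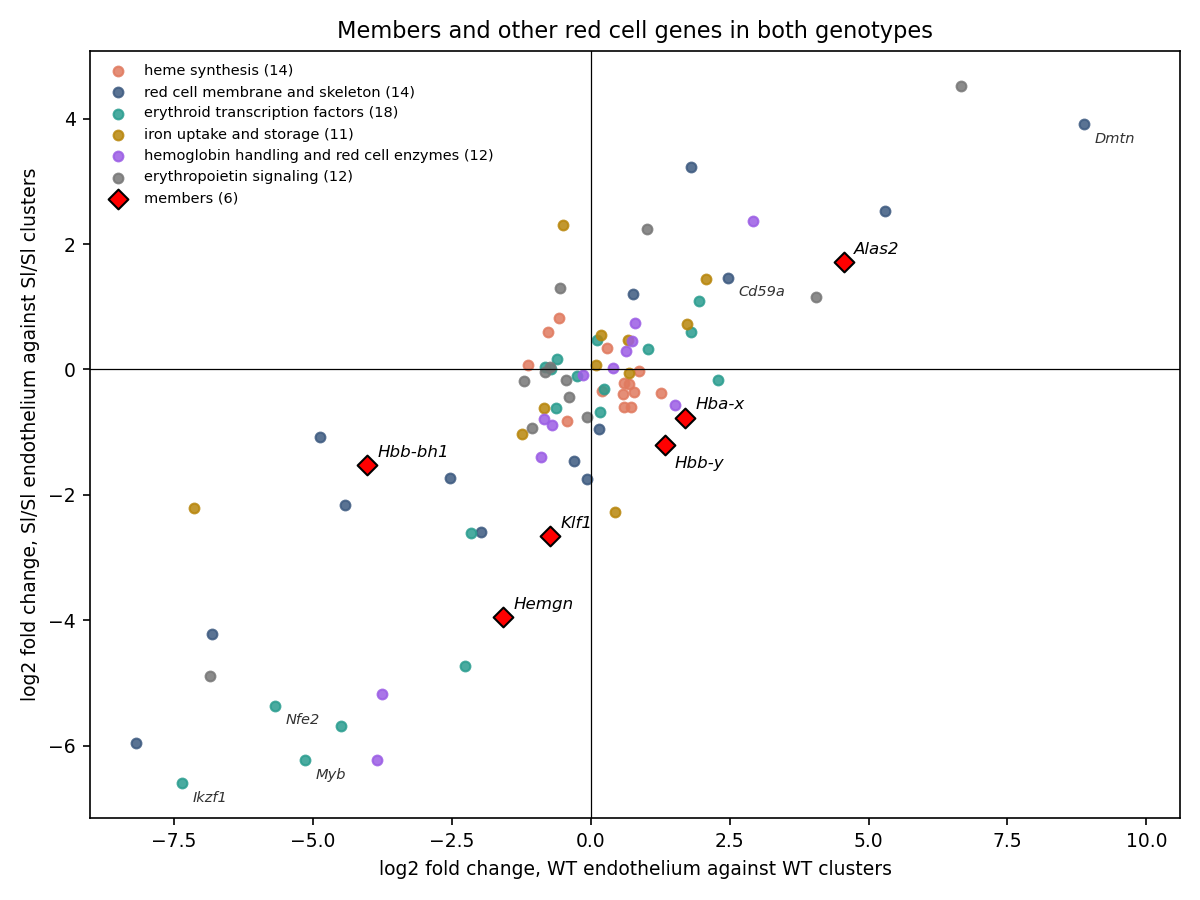
Log2 fold change of endothelium against clusters in WT (horizontal axis) and Sl/Sl embryos (vertical axis) for the 81 tested genes of 6 red cell lists (dots, coloured by list) and the 6 tested members (red diamonds). Ikzf1, Myb and Nfe2 lie at the lower left, while Hbb-y stands at 1.33 and -1.20 and Hba-x at 1.69 and -0.77.

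Of 20 genes of the red cell membrane and skeleton, 14 were tested. In WT embryos, 3 were higher in endothelium (Dmtn, Add2 and Cd59a) and 2 lower (Xk and Cd47), and in Sl/Sl embryos Cd59a was higher and Cd47 lower. Over all genes tested, 8.24% were called between the cell types in WT and 2.83% in Sl/Sl embryos. Cd59a, which encodes an inhibitor of complement, and Cd47, which encodes a signal that inhibits phagocytosis, act on many cell types, and they had the highest levels of the list, at 23.2 to 149 and 36.3 to 398 RPKM. In WT embryos the call of Add2 (adjusted p = 0.0991 in edgeR) was lost without any 1 of the 8 libraries, reaching 0.352, and that of Xk (adjusted p = 0.0768) without WT clusters replicate 1 or either WT endothelium library, reaching 0.222. In Sl/Sl embryos the call of Cd47 was lost without replicate 2 of the clusters or either endothelial library and that of Cd59a without either cluster library or replicate 1 of the endothelium, with edgeR adjusted p up to 0.119 and 0.240. Ank1, which encodes ankyrin of the red cell skeleton, had 0 to 10 counts. Kel, which encodes the Kell blood group protein, had 7 and 634 counts in WT clusters, 51 and 49 in Sl/Sl clusters and 1 to 4 in the endothelium.

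Of 12 genes of iron uptake and storage, 11 were in the table and tested, and in WT embryos Tfr2 was lower and Ftl1 higher in endothelium, with 0 calls in Sl/Sl embryos. For this list and the next, the shares called over all genes tested were 8.24% in WT and 2.83% in Sl/Sl embryos. Tfr2, which encodes a transferrin receptor of liver and red cell precursors, had 77 to 200 counts in the clusters and 1 to 33 in the endothelium, and its call was lost without any 1 of the WT or Sl/Sl cluster libraries or the WT endothelium libraries (edgeR adjusted p up to 0.233). The call of Ftl1 was lost without any 1 of the 4 WT libraries (up to 0.331). Ftl1 and Fth1, the ferritin chains, had the highest levels, at 763 to 1338 and 819 to 1120 RPKM. Of 18 genes of hemoglobin handling and red cell enzymes, 17 were in the table and 12 tested. In WT embryos Prdx2 was higher and Gpx1 and Car2 lower in endothelium, and in Sl/Sl embryos Gpx1 and Car2 were lower. Car2, which encodes carbonic anhydrase 2, had 2616 to 5450 counts in the clusters and 79 to 401 in the endothelium, while Gpx1 and Prdx2, antioxidant enzymes of most cells, had 781 to 1757 and 806 to 1327 RPKM. The call of Prdx2 was lost without either WT cluster library or WT endothelium replicate 2 (edgeR adjusted p up to 0.249). That of Gpx1 was lost in WT without WT clusters replicate 2 or WT endothelium replicate 1 (up to 0.194) and in Sl/Sl embryos without any 1 of their 4 libraries (up to 0.318). Car1, the other carbonic anhydrase of the list, had 11 and 278 counts in WT clusters and 7 and 1038 in Sl/Sl clusters, with replicate 2 as the higher one in both, as for Gata1. Ahsp, which encodes a chaperone of free alpha chains, was not analysed here.

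Of 12 genes of erythropoietin signaling, all tested, 1 was lower in endothelium in both genotypes. It was Ptpn6, a phosphatase of many blood cells, with 2479 to 4234 counts in the clusters and 24 to 104 in the endothelium. Of all genes tested, 8.24% were called between the cell types in WT and 2.83% in Sl/Sl embryos. Epor, which encodes the erythropoietin receptor, had 6 and 3 counts in WT clusters, 74 and 0 in Sl/Sl clusters, 76 and 67 in WT endothelium, and 14 and 103 in Sl/Sl endothelium. Both WT endothelium libraries were above both WT cluster libraries, as for Hbb-y and Alas2, with a log2 fold change of 4.06 (SE 2.50, edgeR adjusted p = 0.406). In Sl/Sl clusters the library with 74 counts of Epor, replicate 1, was also the one with 2701 of Hbb-y, 163 of Klf1 and 189 of Hbb-bh1. Other red cell genes were lower in it than in replicate 2: Hba-x (81 and 135), Alas2 (12 and 21), Gata1 (62 and 236) and Car1 (7 and 1038). Hemgn was level, at 69 and 68. Of the 81 tested genes of these 6 lists, 0 were called between genotypes or in the interaction in edgeR. An unadjusted p under 0.05 was reached by 7 in clusters, 4 in endothelium and 5 in the interaction, and DESeq2 called 2, 0 and 0. Over all 13908 genes tested, an unadjusted p under 0.05 was reached by 587, 579 and 735. DESeq2 called 175, 178 and 175 of all genes.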

How the data were processed

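Libraries were made by the SMARTSEQ2 method and sequenced by the authors as paired reads of 75 bp, which STAR 2.4.2a aligned to mm9. Lanes were merged, and featureCounts (Subread 1.4.5) gave the deposited counts, which are raw whole numbers for each gene and library. The annotation, the strand setting and the handling of reads that match several genes or places are not given in the sources used here. Groups and replicate numbers came from the sample titles. The study calls the samples biological replicates, but which sorting experiment each came from is not given, so p-values measure the spread between these samples.

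All 8 libraries (8933236 to 13428214 counts) were fitted together with edgeR 4.0.16 in R 4.3.3, with TMM factors, filterByExpr on the 4 groups, 1 coefficient per group, the quasi-likelihood test and Benjamini-Hochberg adjustment over 13908 genes at 0.1, the threshold named in the study's methods. With 4 residual degrees of freedom the spread is shared across genes. CPM used TMM-scaled totals, RPKM used plain totals and the exon length of the table, and log2 CPM used a prior count of 2. A count of 0 was taken to allow 3. Genes were named by rule: the members, the genes past the threshold or highest in RPKM of each list, the sort markers and the genes most like Klf1 and Hbb-y. Add2, Bcl11a, Kel, Car1, Ank1 and C1qa were added after their values were seen, and 2 further genes are not reported here. The members and lists were chosen with earlier results of these data known. The test was checked on simulated counts. Alternatives were RLE factors, no filter, DESeq2 1.42.0, a threshold of 0.05, a replicate block, scaling without the globins and leaving out each library.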

Additional observations from a re-analysis of the deposited data

Results flagged for a closer look

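For Gp9, a platelet surface gene of the megakaryocyte list, the order of the genotypes was opposite in the 2 cell types. Both Sl/Sl libraries were above both WT libraries in clusters (counts of 348 and 390 against 130 and 72, log2 fold change 1.73, edgeR adjusted p = 1) and both were below in endothelium, where the counts were 1 and 0 against 3 and 5, near the lowest that can be counted. Neither genotype difference passed the threshold, nor did the interaction of genotype and cell type (edgeR adjusted p = 0.902), so a difference between the cell types is not shown.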

How the results depend on the processing

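No member was called under RLE factors, a threshold of 0.05, the replicate block, scaling without the globins or the removal of any 1 library. The threshold of 0.05 was set on the main fit and could call none, since no member passed 0.1 there. With no filter on low counts and in DESeq2, 1 member was called between WT endothelium and WT clusters (Hbb-bh1) and 1 between genotypes in clusters (Hbb-y). Over all genes, the calls between cell types in WT numbered 1146, and 1990 with no filter, 2613 in DESeq2 and 657 at 0.05, and leaving out 1 library gave 592 to 1329. In Sl/Sl they numbered 393, and 1266, 1631 and 222, and 182 to 633 without 1 library. Between genotypes in clusters the 0 calls became 253 with no filter, 175 in DESeq2 and 6 to 76 without 1 library, in endothelium 65, 178 and 0 to 1, and in the interaction 179, 175 and 0 to 27.

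The replicate numbers are not shown to pair the samples: the differences between replicates 1 and 2 correlated across genes at 0.157 between the cluster groups, -0.0117 and 0.0231 between cell types of one genotype and -0.0025 between the endothelial groups. With the replicate number as a block, the calls were 1179 and 452 between cell types and 8, 0 and 0 for genotype in clusters, in endothelium and the interaction, and the log2 fold change of Klf1 between genotypes in clusters was -0.95.

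Member folds that turned when 1 library was left out ranged as follows. Between WT endothelium and WT clusters, Hba-x ran from -1.72 to 2.88 and Klf1 from -1.94 to 0.82. In Sl/Sl embryos, Klf1 ran from -3.62 to 1.59, Hbb-y from -2.17 to 2.22 and Hbb-bh1 from -2.34 to 0.49. Between genotypes, Hbb-y ran from -0.031 to 4.72, Hbb-bh1 from -3.84 to 1.70 and Klf1 from -4.12 to 1.72 in clusters, Hba-x from -2.74 to 4.83 and Hbb-y from -0.086 to 1.43 in endothelium, and the interaction of Hbb-y from -0.89 to 3.85. The causes were not tested. In all, 260 of 277 recomputed member folds kept their direction and side of the threshold, 13 reversed and 4 passed it, and 7 folds against libraries all at 0 were left out. The 260 kept folds are not a measure of stability, since part of them could hardly change. The stricter threshold was set on the main fit, so its folds could neither turn nor pass. Many other fits left out a library of neither compared group, which leaves the compared libraries as they were. The 40 recomputed globin levels and embryonic shares stayed within 1 SD, but for most of them this does not show stability. The embryonic shares were 100% in every library and could not move. When 1 of the 2 libraries of a group is left out, the other always lies within 1 SD of their mean. The globin levels recomputed with another scaling could have moved, and they did not move by more than 1 SD. With counts as low as these, absence and a few cells cannot be told apart.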
